A study of Homo sapiens with 2 samples.

Results

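The hyaluronan group held 10 genes: the depolymerase CEMIP and its relative CEMIP2, the synthases HAS2 and HAS3, the hyaluronidases HYAL1, HYAL2 and HYAL3, the receptors CD44 and HMMR, and UGDH, which supplies a precursor. The group was chosen by measured values: CEMIP, listed as KIAA1199 in older annotations, was picked for its low signal ratio on the gefitinib array. The other genes were picked for their part in the metabolism of the polymer, with earlier results of these data known. They were read from the 25 probe sets paired with 1 of these genes alone, out of 54675 on the array. No probe set was paired with HYAL1 alone, so 9 of the 10 genes had a value, out of 19775 genes in all. The signals came from H322c cells, an established NSCLC line that the study describes as sensitive to gefitinib and as expressing both EGFR and its ligands. Cells were left to attach for 24 hrs and then received 1 µM gefitinib, a small molecule inhibitor of the EGFR kinase, or DMSO at 0.1%, for 4 days. Total RNA of each condition was hybridised to 1 Affymetrix U133 Plus 2.0 array. With 1 array per condition no value has a replicate error and no test was possible, and every difference describes these 2 arrays of 1 cell line.

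Hyaluronan is an unbranched chain of alternating glucuronic acid and N-acetylglucosamine. Synthases in the plasma membrane join these sugars from their UDP-linked forms and push the growing chain out of the cell, where it forms a coat and a part of the matrix. The chain is cut at the cell surface and taken up to be degraded in lysosomes, and in lung it belongs to the interstitial matrix and the airway surface. CD44 is its main receptor on epithelial and many other cells.

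Signals below 100 on the linear MAS5 scale were raised to 100, a floor higher than the median of the whole array (42.3 for the vehicle and 41.7 for the drug). A gene was measured where at least 1 of its probe sets reached the floor on at least 1 array, and its brightest probe set over both arrays stood for it. Of the 10 genes, 6 were measured, and each reached the floor in both conditions. Of all genes with a probe set of their own, 56.8% were measured. Of the 6 measured genes of the group, 3 were at least 2-fold lower with gefitinib (CEMIP, HAS3 and HYAL2). None of the 6 was at least 2-fold higher, and 3 were within 2-fold (HMMR, UGDH and CEMIP2). Over all 11223 measured genes, 6.20% were at least 2-fold lower and 13.3% were at least 2-fold higher. These shares ran from 4.37% and 17.7% when the arrays were scaled to GAPDH to 9.24% and 9.56% when they were scaled to the spike-ins. The median log2 ratio of gefitinib over DMSO was -0.65 for the 6 genes and 0.12 for all measured genes. Since CEMIP was picked on this same ratio and the others were chosen with earlier results known, the count and the median describe the group. They are no evidence about it. The epithelial markers EPCAM, CDH1, KRT8, KRT18 and KRT19 had signals between 14038.1 and 38923.3 on both arrays.

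**Figure D1:**
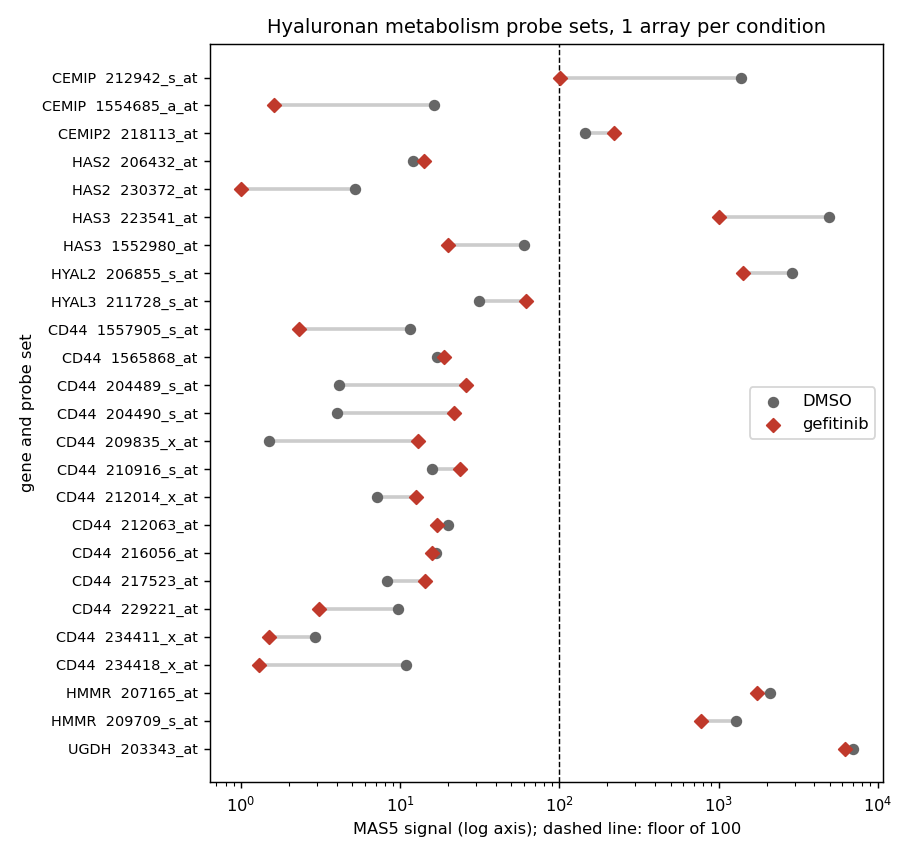
MAS5 signal (horizontal log axis) of the 25 probe sets of the hyaluronan genes (vertical axis) on the DMSO array (grey circles) and the gefitinib array (red diamonds), 1 array per condition, with the floor of 100 dashed. All 13 CD44 probe sets lie to the left of the floor in both conditions, while the brighter CEMIP probe set goes from 1385.2 with DMSO to 101.4 with gefitinib.

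CEMIP is a secreted and membrane-associated protein that binds hyaluronan and is needed for cells to cut long chains into short ones. Its brighter probe set read 1385.2 in vehicle-treated cells and 101.4 in gefitinib-treated cells. The signal with gefitinib was 13.7-fold lower (log2 ratio -3.77), so that a transcript well above the floor under DMSO was left just at it. This ratio ranked CEMIP 3 from the lowest among the 10190 genes that reached the floor in both conditions. Since CEMIP was picked on this ratio, the rank describes it and is no evidence about it. The 1033 genes that reached the floor on 1 array only have bounds and were not ranked. The second CEMIP probe set stayed under the floor, with signals of 16.2 and 1.6, so the value of CEMIP rests on 1 probe set. Because its gefitinib signal was within a few units of the floor, the fold also depends on that floor: with a floor of 200 it became a bound of at least 6.92-fold lower. Across the 5 other scalings and corrections of the arrays the ratio ran from 12.1-fold to 15.7-fold lower.

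The genes most like CEMIP in both signals were FIBCD1, UBASH3B and the ETS factor ETV4. Likeness was the distance between genes in log2 signal on the 2 arrays. FIBCD1, a membrane receptor that binds acetylated sugars such as chitin, had signals of 1195.6 with DMSO and 116.7 with gefitinib and lay at a distance of 0.29. UBASH3B, a phosphatase, had 974.5 and 103.0 at a distance of 0.51, and ETV4, a transcription factor induced by ERK signaling, had 926.9 and 117.5 at a distance of 0.62. They were 10.2-fold, 9.46-fold and 7.89-fold lower with gefitinib. With 2 arrays, such likeness means only that the 2 signals were close.

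CEMIP2, formerly TMEM2, is a transmembrane relative of CEMIP with a similar extracellular part. Its only probe set read 145.2 under DMSO and 221.6 under gefitinib. It was thus 1.53-fold higher, within 2-fold, and its log2 ratio stayed between 0.38 and 0.79 under the scalings tried and was 0.15 with a floor of 200. The related genes therefore stood on opposite sides of no difference, at log2 ratios of -3.77 for CEMIP and 0.61 for CEMIP2, though CEMIP2 was measured near the floor.

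HAS3 and HAS2 encode synthases of the polymer. The brighter HAS3 probe set read 4970.4 in vehicle-treated cells and 1001.4 in gefitinib-treated cells, a 4.96-fold lower value (log2 ratio -2.31). HAS3 remained well above the floor with the drug, and it ranked 53 from the lowest of the 10190 genes. Over the scalings tried its ratio ran from 4.38-fold to 5.66-fold lower, and it was the same with a floor of 50 or 200. A second HAS3 probe set did not reach the floor, its higher signal being 60.3 under DMSO. HAS2, the synthase best known from mesenchymal cells and development, was below the floor at both of its probe sets, with its highest signal at 14.2. HAS1 had no probe set of its own in the annotation, so HAS3 was the one synthase measured.

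**Figure D2:**
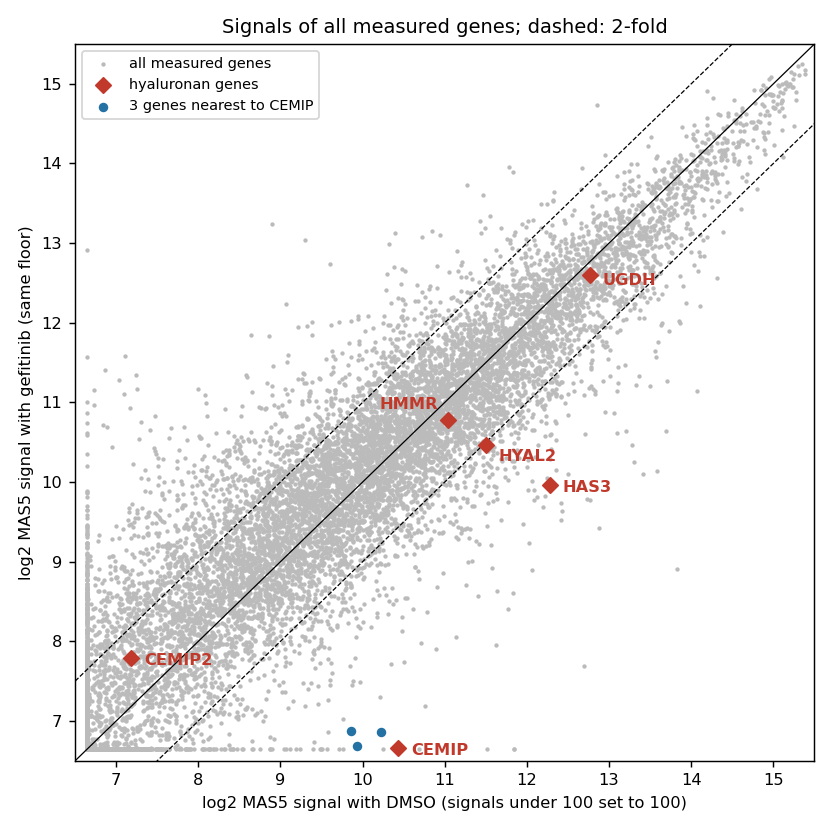
Log2 MAS5 signal with gefitinib (vertical axis) against that with DMSO (horizontal axis) for the 11223 measured genes (grey), signals under 100 set to 100, with 2-fold dashed. Red diamonds are the 6 measured hyaluronan genes and blue points the 3 genes nearest to CEMIP, and CEMIP and HAS3 lie clearly below the lower dashed line while HYAL2 lies on it.

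The sequences around the start sites of CEMIP and HAS3 are shown because these genes had the lowest ratios of the group. Each is 300 bases on the plus strand of GRCh38.p14 from RefSeq, 250 before the start site and 50 from it on, at chr15:80779120-80779419 for CEMIP and chr16:69107290-69107589 for HAS3. Capitals mark matches, on either strand, to the SP1 motif GGGCGG and to the TATA box motif TATAAA.
CEMIP: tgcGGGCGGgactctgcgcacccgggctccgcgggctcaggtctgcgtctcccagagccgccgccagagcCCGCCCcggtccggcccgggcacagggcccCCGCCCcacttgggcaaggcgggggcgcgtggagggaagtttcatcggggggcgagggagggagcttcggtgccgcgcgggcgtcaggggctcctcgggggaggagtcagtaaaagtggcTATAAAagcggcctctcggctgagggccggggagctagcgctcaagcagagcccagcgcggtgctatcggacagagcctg
HAS3: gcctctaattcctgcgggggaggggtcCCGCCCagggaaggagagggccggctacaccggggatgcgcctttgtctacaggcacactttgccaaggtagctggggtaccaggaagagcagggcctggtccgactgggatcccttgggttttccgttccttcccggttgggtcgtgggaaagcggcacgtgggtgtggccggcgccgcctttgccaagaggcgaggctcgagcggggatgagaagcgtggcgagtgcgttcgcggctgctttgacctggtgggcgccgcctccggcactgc
The CEMIP window held a TATAAA match that began 30 bases before the start site, and 3 SP1 matches. The HAS3 window held 1 SP1 match and no TATAAA. Of all 35116 promoter windows of this length, 11.5% held TATAAA and 45.0% held GGGCGG. The AP-1 motif TGANTCA and the ETS motif CCGGAAG, held by 7.71% and 10.3% of all windows, were in neither of these. They were also in none of the 10 windows of 9 genes of the group that were searched, of which 9 held an SP1 match, all but that of HYAL2. The TATAAA match of CEMIP was the only one in these windows. These matches describe letters and not binding, and HAS2 was not searched here.

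HYAL2 is a hyaluronidase anchored to the cell surface, and HYAL1 and HYAL3 are relatives whose genes lie next to it. The HYAL2 probe set read 2890.3 under DMSO and 1413.5 under gefitinib. It was 2.04-fold lower (log2 ratio -1.03), only just past 2-fold. Its side of 2-fold changed with the scaling: the log2 ratio was -0.90 with centring on control probe sets (control centring) and -0.86 with GAPDH scaling, against -1.22 with spike-in scaling. HYAL3 did not reach the floor, reading 31.2 under DMSO and 62.1 under gefitinib. This was the highest signal of the group below the floor, and CEMIP with gefitinib, at 101.4, was the lowest above it.

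CD44 was below the floor at all 13 of its probe sets on both arrays. Their signals ran from 1.5 to 19.9 with DMSO, with a median of 9.7, and from 1.3 to 25.8 with gefitinib, with a median of 14.4. All of these signals were also below the median of all probe sets on their own array. The signal was nominally higher with gefitinib at 7 CD44 probe sets and lower at 6, and no fold was taken from values under the floor. Of the 39 genes with at least 10 probe sets, 9 had none at the floor on either array, and CD44 is counted in both numbers. CD44 RNA was therefore not detected above the floor in these cells in either condition, which does not show that it was absent.

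HMMR binds hyaluronan at the cell surface and, inside dividing cells, belongs to the mitotic spindle. The brighter HMMR probe set read 2105.3 under DMSO and 1752.4 under gefitinib, which is 1.20-fold lower (log2 ratio -0.26). Its other probe set read 1278.7 and 770.7, 1.66-fold lower (log2 ratio -0.73). Both probe sets were therefore lower and within 2-fold. The difference between them was not large beside the spread among probe sets of 1 gene on these arrays (pooled SD 0.54 in log2 ratio over 4610 genes). The difference says nothing of the spread between cultures.

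UGDH oxidises UDP-glucose to UDP-glucuronate, a sugar that the synthases use and that other glycosaminoglycans need as well. UGDH read 6969.0 under DMSO and 6226.1 under gefitinib, which is 1.12-fold lower (log2 ratio -0.16). The sign was not stable, since GAPDH scaling gave a log2 ratio of 0.01 and spike-in scaling one of -0.35.

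**Figure D3:**
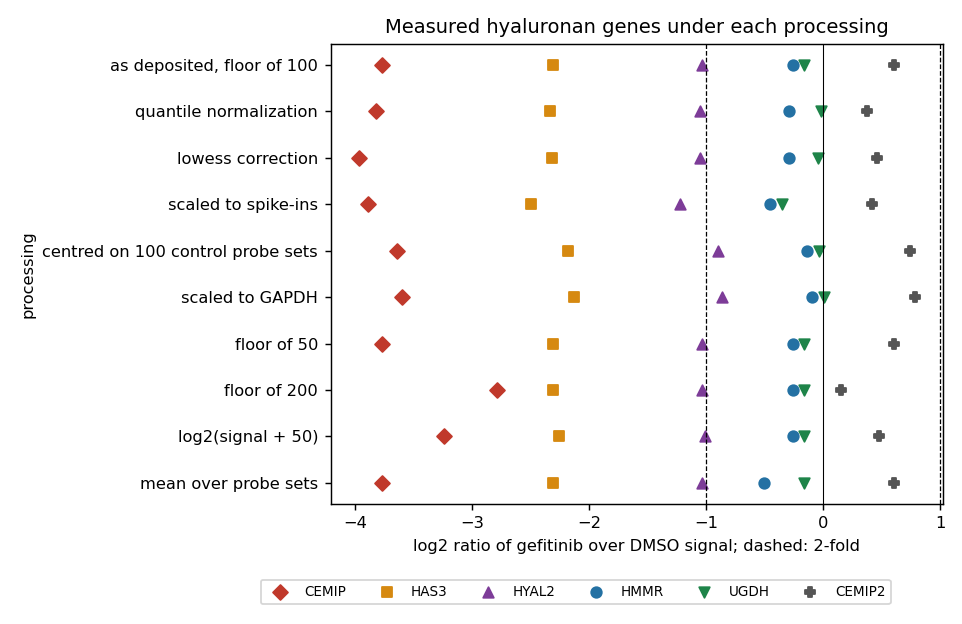
Log2 of the gefitinib signal over the DMSO signal (horizontal axis) for the 6 measured hyaluronan genes under 10 ways of processing the arrays (vertical axis), 1 array per condition, with 2-fold dashed. CEMIP and HAS3 stay below -1 under each, HYAL2 is above -1 with control centring (-0.90) and GAPDH scaling (-0.86), and UGDH lies near 0.

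Other genes of the pathway were taken from 3 lists with 41 genes in all. Of these 14 were measured, 2 were at least 2-fold lower with gefitinib, none was at least 2-fold higher and 12 were within 2-fold, beside 6.20% lower and 13.3% higher among all measured genes. They had a median log2 ratio of -0.09 against 0.12 over all measured genes. The sign of the list's median was not stable, at 0.04 with control centring and 0.09 with GAPDH scaling. In the list of enzymes that supply UDP-sugars, 8 of 10 were measured. HK2, a hexokinase, had signals of 6791.1 under DMSO and 3304.0 under gefitinib, 2.06-fold lower, and its log2 ratio was -0.91 with control centring, -0.86 with GAPDH scaling and -0.95 with quantile normalization or lowess correction. The others were within 2-fold, among them GPI, glucose-6-phosphate isomerase, at a log2 ratio of -0.51 and UGP2, which makes UDP-glucose, at -0.20. The steps towards UDP-N-acetylglucosamine that were measured (GFPT1, GNPNAT1 and UAP1) had log2 ratios from -0.30 to 0.17 at their brightest probe sets.

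Among further enzymes of the polymer, 2 of 6 were measured, and these were the lysosomal enzymes that take single sugars from its fragments. HEXA, a subunit of beta-hexosaminidase, had signals of 5077.0 under DMSO and 8225.1 under gefitinib, 1.62-fold higher, and GUSB, beta-glucuronidase, was 1.15-fold higher. Both were within 2-fold. HYAL4 and the sperm hyaluronidase SPAM1 were below the floor, at no more than 18.7.

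Of 25 other receptors and binding proteins, 4 were measured, beside 56.8% of all genes. The receptors LYVE1, STAB1, STAB2, LAYN, TLR2 and TLR4 were all below the floor, with their highest signal at 46.9, as were the matrix proteoglycans VCAN and ACAN and the hyaluronan-modifying protein TNFAIP6. HABP4, an intracellular protein named for binding hyaluronan that also binds RNA, was 3.71-fold lower at its brightest probe set, with signals of 567.9 with DMSO and 152.9 with gefitinib. Of its 3 measured probe sets 2 were at least 2-fold lower, while the other had a log2 ratio of -0.47. C1QBP, a mostly mitochondrial protein that also binds hyaluronan, had signals of 11727.2 and 6592.9, 1.78-fold lower, and the proteoglycan BCAN was 1.13-fold higher.

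**Figure D4:**
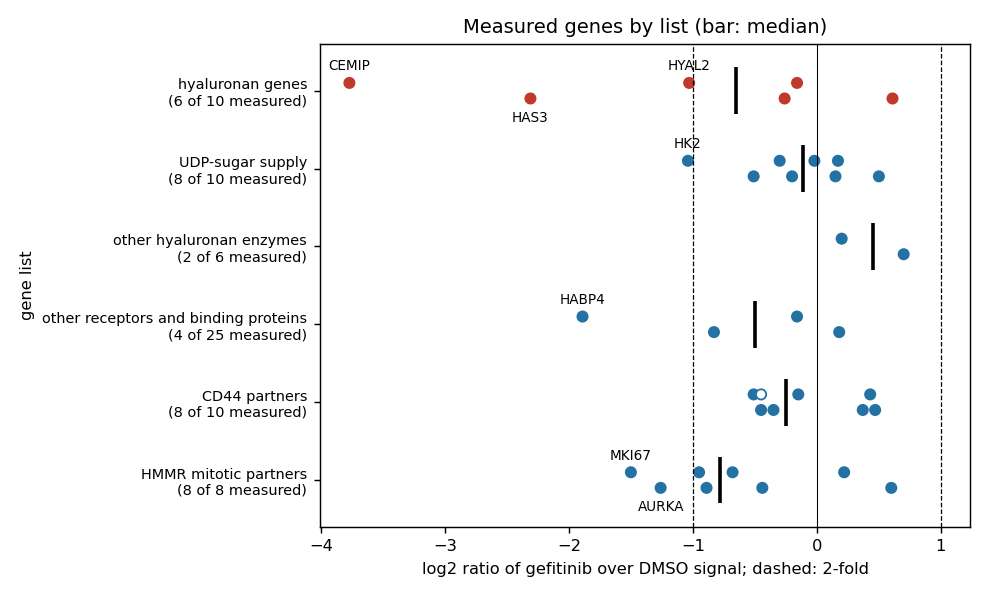
Log2 of the gefitinib signal over the DMSO signal (horizontal axis), drawn gene by gene within each list (vertical axis), 1 array per condition. Each point is a gene at its brightest probe set, and the open point (MMP14) has 1 signal under the floor and is a bound. Black bars are medians and dashed lines mark 2-fold. The hyaluronan genes have a median of -0.65. The list of HMMR mitotic partners, which also holds general genes of cell division, has one of -0.78.

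Partners of CD44 were measured although CD44 itself was not. Of 10 such genes 8 were measured, and each was within 2-fold at its brightest probe set. Among all measured genes 6.20% were at least 2-fold lower and 13.3% at least 2-fold higher. The median log2 ratio of the 8 genes was -0.25, against 0.12 over all measured genes. SPP1, the secreted CD44 ligand osteopontin, had signals of 30400.0 under DMSO and 21416.2 under gefitinib, 1.42-fold lower, and ESRP1, an epithelial regulator of CD44 splicing, was 1.27-fold lower. EZR, ezrin, which links membrane proteins to actin, differed between its probe sets. It was 1.37-fold lower at its brightest by mean log2 signal. The EZR probe set with the highest single signal, 11519.4 under DMSO and 5471.2 under gefitinib, was 2.11-fold lower. Of its 4 measured probe sets 3 were at least 2-fold lower, and the mean log2 ratio over all 4 was -1.07. The related linker MSN, moesin, was below the floor at both of its probe sets, with a highest signal of 15.2. RDX, radixin, had a log2 ratio of 0.43. NF2 also differed between its probe sets, with a log2 ratio of -0.15 at its brightest. Its 6 measured probe sets had log2 ratios from -1.17 to -0.15 and averaged -0.75.

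The genes listed as mitotic partners of HMMR included general genes of cell division such as MKI67. At their brightest probe sets, the listed genes had a lower median ratio than the brighter HMMR probe set. This median was close to the ratio of the other HMMR probe set. All 8 of these genes were measured, 2 were at least 2-fold lower, none was at least 2-fold higher, and the median log2 ratio was -0.78. Over all measured genes the shares were 6.20% lower and 13.3% higher and the median 0.12. The kinase AURKA had signals of 4707.3 under DMSO and 1967.1 under gefitinib, 2.39-fold lower, and its activator TPX2, which HMMR binds, was 1.85-fold lower. The spindle proteins KIF11 and NUMA1 had log2 ratios above 0, at 0.22 and 0.60. CCNB1, cyclin B1, was 1.93-fold lower and CDK1, its kinase, 1.36-fold lower at its brightest probe set. The other CDK1 probe sets were 2.51-fold and 2.26-fold lower, and all 3 averaged a log2 ratio of -0.98. MKI67, a marker of dividing cells, was 2.83-fold lower at its brightest probe set, but its probe sets averaged a log2 ratio of -0.31. In bulk RNA, fewer dividing cells and less RNA per cell cannot be told apart, and the part of cell division in the HMMR ratio was not tested.

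The nearest measured protein-coding genes, 3 on each side, were looked up for CEMIP, HAS3 and HYAL2 after their values had been seen. None of the 6 neighbours of CEMIP was at least 2-fold lower. They ran from TLNRD1, with a log2 ratio of -0.94, to STARD5, which was 2.24-fold higher, and the nearest on each side, ABHD17C and MESD, had 0.25 and 0.54. The 6 neighbours of HAS3 were all within 2-fold, including the cadherins CDH1 (0.14) and CDH3 (0.08) and, on the other side, CHTF8 (0.14) and UTP4 (-0.34). Of the 6 neighbours of HYAL2, IFRD2 was 2.13-fold lower, with signals of 1941.5 with DMSO and 912.1 with gefitinib. The others ran from -0.45 for RASSF1 to 0.90 for SEMA3F.

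Markers of cells outside the epithelium were mostly below the floor. Of 6 fibroblast markers only COL1A1 was measured, at 420.8 under DMSO and 950.2 under gefitinib, 2.26-fold higher at its brightest probe set, while COL1A2, COL3A1, DCN, LUM and PDGFRB had signals of at most 44.5. The 3 measured COL1A1 probe sets had log2 ratios from 0.14 to 1.57, and the highest DMSO signal among them was 531.4. The highest signals of the 6 genes on each array summed to 627.9 with DMSO and 1014.6 with gefitinib. The 3 leukocyte markers with a probe set, PTPRC, CD3E and CD14, were below the floor on both arrays. Of 4 endothelial markers, VWF was under the floor with DMSO and at 496.0 with gefitinib, at least 4.96-fold higher, PECAM1 was at least 1.28-fold lower, and CDH5 and KDR were below the floor. The part of such cells in the ratios above was not tested.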

How the data were processed

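The authors deposited signal intensity values on a linear scale, 1 column for each of the 2 arrays. The submitters' processing notes name MAS5, which subtracts background, corrects for mismatch probes and scales each array. The 2% trimmed mean was 500 on each array. Arrays give no read depth, and their number limits the precision. The annotation paired 41097 probe sets with 1 gene and 1801 with several, 11777 were not listed, and symbols were updated through 41043 matched gene identifiers (GRCh38.p14). Groups came from the treatment labels. A floor of 100 was applied, then log2 ratios were formed, and genes were counted at 2-fold or more. No p-value was computed. Named were all members, list genes past 2-fold, the 2 brightest others of each list and the 3 genes nearest to CEMIP. Other genes were chosen after their values were seen. The members and lists were chosen with earlier results of these data known. The alternatives were 5 other scalings or corrections (quantile, 100 control probe sets, GAPDH, spike-ins, lowess with span 0.3), floors of 50 and 200, log2(signal + 50), other choices of probe sets, and thresholds of 1.5 and 3. Scripts were tested on simulated data. Tables were handled in Python 3.11.15 with pandas 2.3.3 and numpy 2.4.6. The lowess fit came from statsmodels 0.14.6, and plots were drawn with matplotlib 3.10.9.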

Additional observations from a re-analysis of the deposited data

How the results depend on the processing

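The lower ratios of CEMIP and HAS3 stayed past 2-fold under every scaling, correction, floor and choice of probe sets tried. The log2 ratio of CEMIP moved to -2.79 with a floor of 200, where the gefitinib signal falls under the floor and the value is a bound. The number of group genes at least 2-fold lower was 3, but 2 with control centring or GAPDH scaling, where HYAL2 was lost, and 2 at a threshold of 3. The number of higher group genes was 1 at a threshold of 1.5, and so was that of higher pathway genes. The number of lower pathway genes was 1 with quantile normalization, control centring, GAPDH scaling, lowess correction or a threshold of 3. It was 3 at a threshold of 1.5, and 3 with spike-in scaling, where C1QBP was added at -1.02. Over all measured genes 1675 (14.9%) were lower and 2961 (26.4%) higher at a threshold of 1.5, and 230 (2.05%) and 536 (4.78%) at a threshold of 3. Averaging all measured probe sets moved EZR to -1.07, NF2 to -0.75 and MKI67 to -0.31 in log2 ratio. The median log2 ratio of all measured genes was 0.12 as deposited, 0.28 with GAPDH scaling, 0.24 with control centring and -0.06 with spike-in scaling. With a floor of 50, HYAL3 was also measured, and the median of the 7 measured group genes was -0.26. No paired analysis was possible because each condition had 1 array.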

Other observations

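A probe set paired with both HAS3 and its neighbour UTP4, and so left out of the counts, had signals of 60.6 with DMSO and 40.3 with gefitinib, below the floor on both arrays.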
